A study of Mus musculus with 8 samples.

Results

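The chemokine ligand genes of thymic epithelial cells are described here, taken as the genes whose mouse symbol is Ccl, Cxcl, Cx3cl or Xcl followed by a digit, which gave 41 of the 27179 Entrez genes in the count tables. Of these, 39 had a count in at least 1 library and 37 were tested, out of 18163 genes tested in all. Ccl21c and Ccl26 had no count in any library, and Ccl24 and Ccl27b were too low to test. Chemokine ligands are small secreted proteins, some of them membrane-bound, that steer cells carrying the matching G protein-coupled receptors, and their genes form families of close relatives that often lie side by side in the genome. In the thymus, epithelial cells use them to draw in blood-borne progenitors, to hold developing T cells in the cortex, to call selected T cells into the medulla through CCR7, and to place dendritic cells beside the medullary epithelium.

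RNA was sequenced from cortical (cTEC) and medullary (mTEC) thymic epithelial cells of C57BL/6 mice, either wild type (WT) or lacking Mcl1 (KO), whose protein belongs to the BCL-2 family and protects cells from apoptosis. There were 1 KO mTEC, 2 WT mTEC, 1 KO cTEC and 4 WT cTEC libraries, which the series design calls biological replicates. The labels give the age of no animal, and they give neither how the knockout was made, which cells it reaches and which part of the gene is deleted, nor whether a library holds 1 animal or several. Levels are given in CPM, a gene's counts relative to its library's total, with library totals scaled by the trimmed mean of M values (TMM). A gene was called where edgeR's quasi-likelihood test gave a Benjamini-Hochberg adjusted p under 0.05 over all 18163 genes. With a single KO library per population, every test took its spread from the WT libraries, which the fit assumes to hold for KO as well.

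Mcl1 itself was the first check of the labels. Its level was 8.23 CPM in KO cTEC, against 228 to 302 CPM in WT cTECs (log2 fold change -4.97 ± 0.44 (SE), adjusted p = 0.000295). In mTECs it was 78.7 CPM in KO mTEC, against 113 and 203 CPM in WT mTECs (-1.01 ± 0.36, adjusted p = 0.538), where the KO library lay below both WT libraries without being called.

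The sequences of 2 groups of members bear on how the values can be read. Ccl21a, Ccl21b and Ccl21d encode ligands of CCR7 from neighbouring genes on chromosome 4, and their coding sequences are nearly the same. In GENCODE M21 (GRCm38), Ccl21b and Ccl21d, like the predicted genes Gm13304 and Gm10591 of the same cluster, differ from Ccl21a at 2 of 402 coding bases (99.5% identity). The substitutions are T84A and C194T, where Ccl21a's base comes first and positions count from 1 at the start codon. The stretch from position 74 to 204 is shown because it holds both, in capitals. By the coding sequence, a read that covers neither base cannot be assigned to Ccl21a or to another copy. Ccl21b, Ccl21d, Gm13304 and Gm10591 share the same bases, so no read within the coding sequence tells them apart.
Ccl21a: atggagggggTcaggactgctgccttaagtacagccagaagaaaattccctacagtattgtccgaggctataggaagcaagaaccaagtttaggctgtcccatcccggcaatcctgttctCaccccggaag
Ccl21b: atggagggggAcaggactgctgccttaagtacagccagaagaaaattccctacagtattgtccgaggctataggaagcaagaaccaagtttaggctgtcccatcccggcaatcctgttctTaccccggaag
Ccl21d: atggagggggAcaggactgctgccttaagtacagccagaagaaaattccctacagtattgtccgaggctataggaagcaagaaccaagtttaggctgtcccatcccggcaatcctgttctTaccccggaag

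Single Ccl21 copies are therefore uncertain, as are Ccl27a and Ccl27b, another pair of close copies, and sums over the copies are given beside them.

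The second group is shown for the promoters of ligands that are known targets of NF-kB and of interferon signalling. A RefSeq promoter (GRCm38.p6, 250 bases before to 50 after the start site) was found for 28 of the 41 members. Matches to the NF-kB consensus, searched on both strands, lay in 7 of these 28 (25%), against 5.14% of the 27025 genes with a promoter. These 7 were Cxcl1, Cxcl2, Cxcl3, Cxcl10, Ccl9, Ccl20 and Ccl27a. Cxcl1, Cxcl2 and Cxcl3, neutrophil attractants encoded together on chromosome 5, share the same 11 bases, 71, 97 and 73 bases upstream of the start site, which match on both strands with overlap. Capitals mark the matches in each window, 5′ to 3′ on the gene's strand.
Cxcl1 (chr5:90891115-90891234, + strand): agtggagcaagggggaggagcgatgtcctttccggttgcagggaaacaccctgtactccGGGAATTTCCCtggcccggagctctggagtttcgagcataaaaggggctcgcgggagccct
Cxcl2 (chr5:90903769-90903888, + strand): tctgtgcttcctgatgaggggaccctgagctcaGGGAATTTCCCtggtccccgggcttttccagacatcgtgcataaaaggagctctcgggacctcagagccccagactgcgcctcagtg
Cxcl3 (chr5:90785971-90786090, + strand): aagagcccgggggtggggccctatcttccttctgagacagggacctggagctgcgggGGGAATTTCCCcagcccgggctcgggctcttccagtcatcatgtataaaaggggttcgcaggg
Ccl20 (chr1:83116636-83116755, + strand): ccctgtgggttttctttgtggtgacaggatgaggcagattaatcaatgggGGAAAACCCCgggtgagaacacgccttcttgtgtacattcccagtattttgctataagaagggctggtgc

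The core of the interferon-stimulated response element, GAAA followed by any 2 bases and a further GAAA, searched on both strands, was found in 3 of the 28 promoters (10.7%), those of Cxcl10, Ccl19 and Cxcl14, against 3.99% of all genes. The core bound by FOXN1, GACGC, was found in 4 (14.3%), those of Ccl25, Cxcl12, Ccl8 and Ccl9, against 29.6% of all genes. FOXN1 is the transcription factor that thymic epithelium depends on, and Ccl25 is among its known targets. Capitals mark the response element and both NF-kB matches in Cxcl10, and the FOXN1 core on either strand in Ccl25. A match describes the letters of these windows and does not show that a factor binds there.
Cxcl10 (chr5:92348960-92349139, - strand): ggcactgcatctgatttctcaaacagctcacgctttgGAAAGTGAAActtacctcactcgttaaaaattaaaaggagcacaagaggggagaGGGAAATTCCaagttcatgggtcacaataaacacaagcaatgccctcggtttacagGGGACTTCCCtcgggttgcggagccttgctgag
Ccl25 (chr8:4325080-4325259, + strand): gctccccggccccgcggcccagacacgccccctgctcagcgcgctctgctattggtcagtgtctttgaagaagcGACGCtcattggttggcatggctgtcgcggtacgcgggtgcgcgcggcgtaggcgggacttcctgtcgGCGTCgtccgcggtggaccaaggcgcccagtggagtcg

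Totals ran from 11516780 counts in KO mTEC to 19171953 in WT mTEC 1, and 17800 genes had a count in KO cTEC, against 18704 to 22708 in the other libraries. Markers put KO cTEC on the cortical side, with 9 of 10 cTEC markers lower in WT mTECs than in WT cTECs and 5 higher in KO cTEC than in WT cTECs. The 10 include Cxcl12, itself a family member, which is among the 9. They also include Ackr4, which is among both the 9 and the 5. Their values below are therefore not separate from this marker result. Of all genes tested, 12.4% were lower and 5.10% higher in KO cTEC. Between the WT populations 13.2% were higher and 13.9% lower in mTECs. Aire, the defining gene of mature mTECs, had 0 counts in KO cTEC, against 28.9 to 116 CPM in WT cTECs, and 457 CPM in KO mTEC, against 338 and 554 CPM in WT mTECs. Of 12 mTEC markers 7 were lower in KO cTEC. In WT mTECs against WT cTECs, 6 of these 12 were higher and 2, Krt5 and Krt14, were lower. All 12 tuft cell markers were lower in KO cTEC, where they summed to 68.7 CPM with Trpm5, Gnat3, Rgs13 and Hepacam2 at 0, against 1343 to 2145 CPM in WT cTECs, and 919 CPM in KO mTEC, against 990.2 and 1135 CPM in WT mTECs. None of the 12 was higher in WT mTECs than in WT cTECs, and 4 (Trpm5, Gnat3, Dclk1 and Avil) were lower. Of 11 tested dendritic cell and macrophage markers 5 were lower in KO cTEC, where the 15 summed to 16 CPM with Adgre1, Fcgr1, Cd209a, Xcr1, Clec9a and Flt3 at 0, against 178 to 270.0 CPM in WT cTECs, and 702 CPM in KO mTEC, against 851 and 1128 CPM in WT mTECs. Of the 11, 5 were higher in WT mTECs than in WT cTECs. Of the 15, 6 were at 0 in KO cTEC, against 5, 1, 2 and 6 in WT cTECs 1 to 4. B cell markers, 4 of 8 lower in KO cTEC, summed to 4.95 CPM there with Ms4a1 and Pax5 at 0, against 112 to 159 CPM in WT cTECs, and 237 CPM in KO mTEC, against 207 and 225 CPM in WT mTECs. In WT cTECs 1 to 4 there were 1, 2, 0 and 2 B cell markers at 0. Fibroblast markers summed to 1153 CPM in KO mTEC, against 194 and 167 CPM in WT mTECs. In cTECs they summed to 1066 CPM in KO cTEC, against 719 to 931 CPM in WT cTECs. Dcn held most of these cTEC sums, with 573 CPM in KO cTEC, against 557 to 813 CPM in WT cTECs, and was not called. Of the 10 markers, 3 were higher in KO cTEC and none lower. The 3 were Col1a1, Col1a2 and Pi16, with log2 fold changes of 3.03, 2.52 and 4.91 (adjusted p = 0.00299, 0.0233 and 0.00803). The median log2 fold change of the list there was 1.18, beside -0.14 over all genes. The mean log2 CPM of 22 immediate-early and dissociation genes was 7.39 in KO cTEC, against 6.77 in WT cTEC 1 and 8.93 to 9.33 in WT cTECs 2 to 4, and 7.07 in KO mTEC, against 6.68 and 5.83 in WT mTECs. Many chemokine ligands are also expressed by these other cell types, and the part of these markers in the chemokine results was not tested.

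The family as a whole kept a similar summed level in the mTEC libraries and the WT cTEC libraries, and was lower and differently made up in KO cTEC. The 41 genes summed to 4029 CPM in KO mTEC, against 4819.5 and 3790.2 CPM in WT mTECs, and to 2610.3 CPM in KO cTEC, against 4238, 4783, 5244 and 3867 CPM in WT cTECs. KO cTEC lay under every other library. Cxcl12, Ccl25 and Cx3cl1 together held 91.5% of the family's counts in KO cTEC, against 36.0 to 49.9% in WT cTECs, and 20.4% in KO mTEC, against 16.2 and 20.3% in WT mTECs. The other 38 members summed to 223 CPM in KO cTEC, against 2126 to 3259.8 CPM in WT cTECs. Members at 10 CPM or more numbered 8 in KO cTEC, against 23 to 25 in WT cTECs, and 28 in KO mTEC, against 30 and 29 in WT mTECs.

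**Figure D1:**
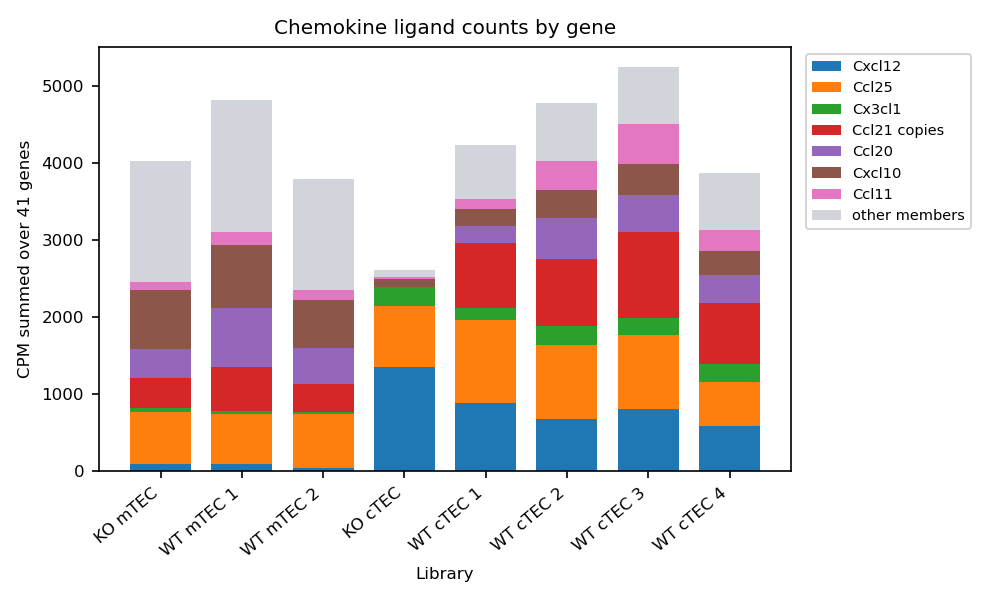
CPM summed over the 41 chemokine ligand genes in each of the 8 libraries, stacked by gene. In KO cTEC the bar is 2610.3 CPM high and is nearly all Cxcl12, Ccl25 and Cx3cl1, while the Ccl21 copies, Ccl20 and Ccl11 take up visible parts of the 4 WT cTEC bars.

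Per kilobase of counted exon, which allows genes to be set side by side, the order differed between the groups. In KO mTEC the highest members were Cxcl10 (698 CPM per kb), Ccl25 (539), Ccl20 (479.7) and Ccl21a (398), and in WT mTECs the same 4 led in the order Ccl20 (759), Cxcl10 (661), Ccl25 (528) and Ccl21a (454). In KO cTEC Ccl25 (623 CPM per kb) stood first, followed by Cxcl12 (188), Cxcl10 (89.0) and Cx3cl1 (78.7), whereas WT cTECs were led by Ccl21a (873), Ccl25 (704), Ccl20 (503) and Ccl11 (302). No test was made between genes.

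**Figure D2:**
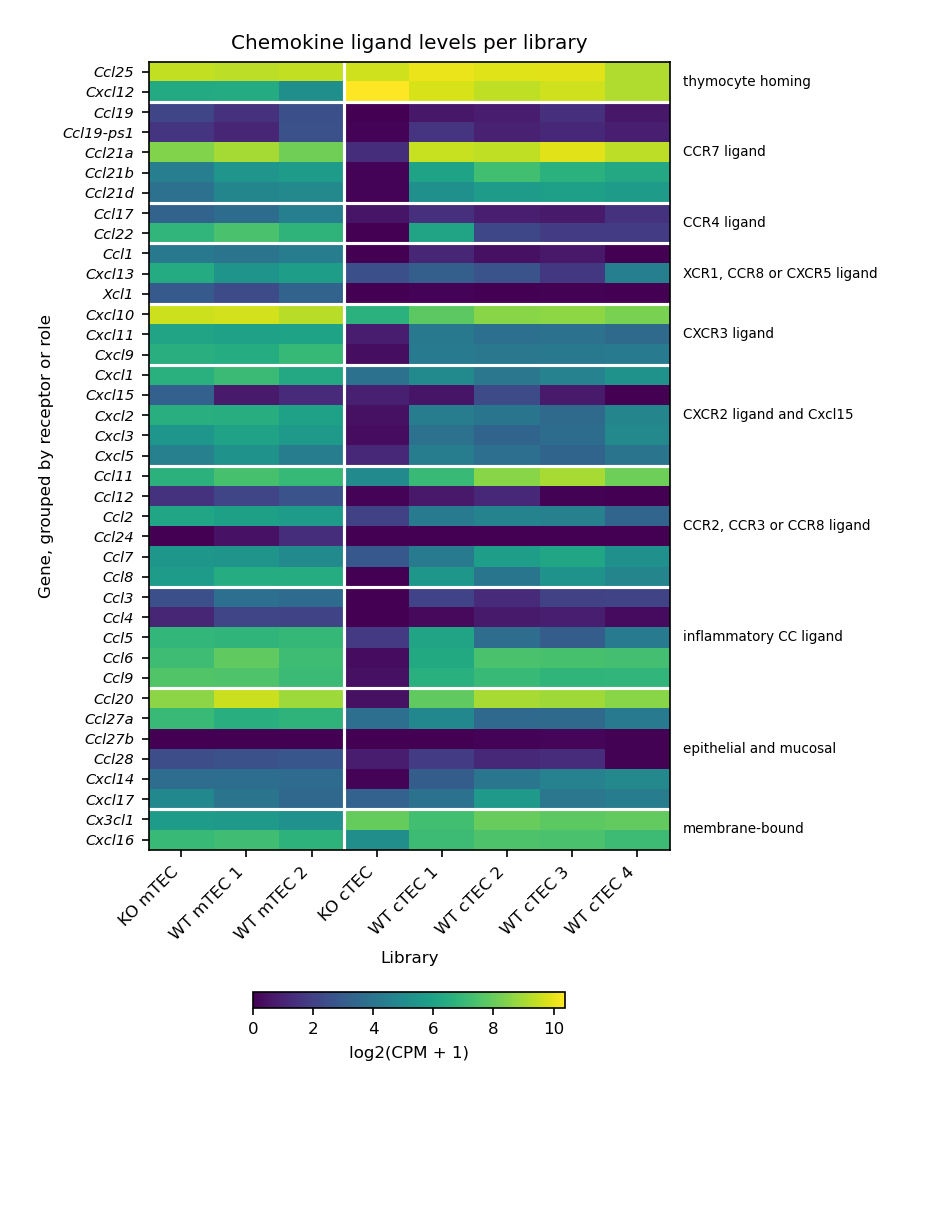
Level of the 39 members with a count, as log2(CPM + 1), in each library (columns) and grouped by receptor or role (panels of rows). The KO cTEC column is dark for most members and bright for Ccl25, Cxcl12 and Cx3cl1, and the KO mTEC column resembles the WT mTEC columns.

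Between the WT populations, 19 of the 37 tested members were called, 15 higher and 4 lower in mTECs, against 27.0% of all tested genes called in either direction (13.2% higher and 13.9% lower). The median log2 fold change of WT mTEC against WT cTEC was 1.45 over the members and 0.06 over all genes. Both mTEC libraries lay above all 4 cTEC libraries for 21 members and below them for 5, against 30.3% and 24.7% of all genes. The count depended on both mTEC libraries, at 10 when WT mTEC 1 was left out and 8 when WT mTEC 2 was.

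In KO cTEC against WT cTECs, 19 members were called and all 19 were lower, against 17.5% of all genes called in either direction, 12.4% lower and 5.10% higher. The median log2 fold change was -3.54 over the members and -0.14 over all genes, and KO cTEC lay below all 4 WT cTEC libraries for 27 members and above them for 1, Cxcl12, against 32.9% and 29.0% of all genes. With limma-voom, 8 members were called lower (Ccl9, Ccl11, Ccl21a, Ccl21d, Cxcl9, Cxcl10, Cxcl11 and Cxcl16), and the other 11 had adjusted p-values of 0.0575 to 0.246. In these bulk libraries, fewer cells of a type and less RNA per cell cannot be told apart.

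In KO mTEC against WT mTECs edgeR called no member, and no gene at all (0% of all genes). The median log2 fold change was -0.02 over the members and -0.03 over all genes, and the KO library lay above both WT libraries for 10 members and below both for 11, against 38.6% and 41.7% of all genes. At an unadjusted p under 0.05 there were 2 members, Ccl21d and Ccl21b, against 8.27% of all genes. DESeq2 called 141 genes and limma-voom none, and no member was among them. Mcl1, too, was not called lower in this library.

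The KO effect differed between the populations for 15 members, each higher in mTECs relative to cTECs, against 6.81% of all genes called in either direction, 6.16% higher and 0.644% lower. These were Ccl2, Ccl3, Ccl6, Ccl8, Ccl9, Ccl20, Ccl21a, Ccl21b, Ccl21d, Cxcl2, Cxcl3, Cxcl9, Cxcl11, Cxcl14 and Cxcl16, and all 15 are among the 19 called lower in KO cTEC. The remaining 4 of those 19, Ccl7, Ccl11, Cxcl5 and Cxcl10, had adjusted p-values of 0.0941, 0.125, 0.0586 and 0.0709 for the difference, and these 4 passed without WT cTEC 1 (adjusted p = 0.00702, 0.00708, 0.0413 and 0.00895) and also with DESeq2 (adjusted p = 0.0051, 0.00313, 0.00597 and 0.00201). With a CPM of at least 5, Cxcl5 passed as well (adjusted p = 0.0441). The median difference was 3.59 over the members and 0.09 over all genes. With limma-voom only Ccl21a passed, and the other 14 had adjusted p-values of 0.0534 to 0.456. Ccl2 did not pass without WT mTEC 1 (adjusted p = 0.126), without WT mTEC 2 (adjusted p = 0.142), without WT cTEC 2 (adjusted p = 0.0753) or without WT cTEC 3 (adjusted p = 0.0798). Ccl3 did not pass without WT mTEC 1 (adjusted p = 0.115), without WT mTEC 2 (adjusted p = 0.117), without WT cTEC 3 (adjusted p = 0.0688) or without WT cTEC 4 (adjusted p = 0.0518). Cxcl3 did not pass without WT mTEC 1 (adjusted p = 0.0552) or without WT mTEC 2 (adjusted p = 0.066).

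**Figure D3:**
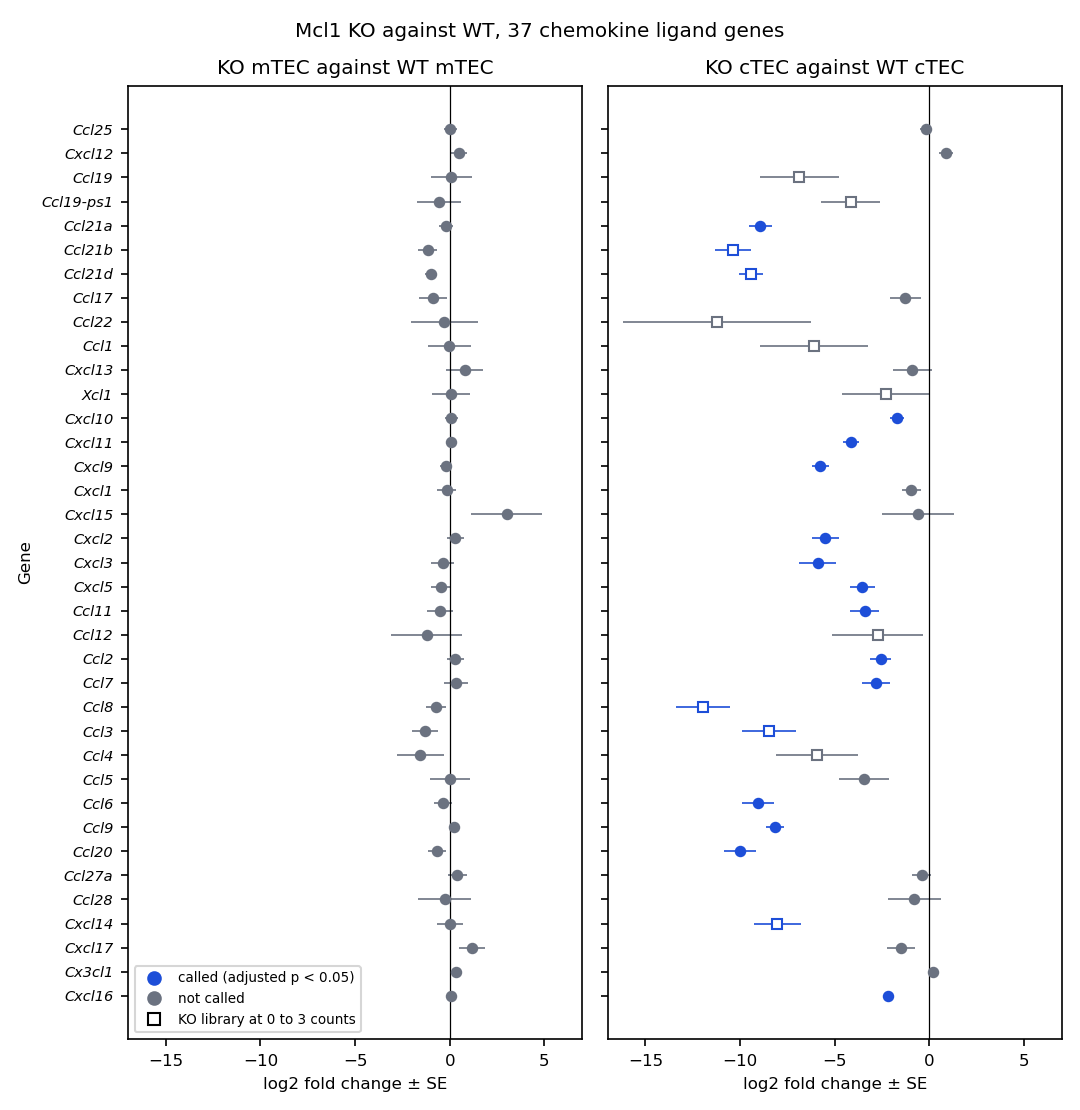
Log2 fold change of KO against WT with its SE for the 37 tested members, in mTECs (left) and cTECs (right). Filled colour marks called genes and open squares mark a KO library with 0 to 3 counts, whose fitted fold depends on the prior count. In mTECs no gene is called, and in cTECs 19 are, all left of 0.

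Ccl25 and Cxcl12 are the ligands of CCR9 and CXCR4 through which thymic epithelium attracts and retains thymocyte progenitors, and neither was called in KO cTEC. In GRCm38.p6 Ccl25 lies at chr8:4325205-4360020 and Cxcl12 lies at chr6:117168535-117181368. In mTECs the Cxcl12 level was 81.7 CPM in KO mTEC, against 82.0 and 35.6 CPM in WT mTECs, with the KO library between the WT libraries. In cTECs it was 1346 CPM in KO cTEC, against 879, 670.2, 797 and 577 CPM in WT cTECs, so the KO library stood above all 4 WT libraries, but the log2 fold change of 0.88 ± 0.38 (adjusted p = 0.156) did not pass. Cxcl12 was lower in WT mTECs than in WT cTECs by a log2 fold change of -3.63 ± 0.39 (adjusted p = 0.00134), with no overlap. Ccl25 had 687 CPM in KO mTEC, against 649 and 697 CPM in WT mTECs, with the KO library between the WT libraries. In cTECs Ccl25 had 794 CPM in KO cTEC, against 1082, 958, 972 and 576 CPM in WT cTECs, inside the WT range, with a log2 fold change of -0.18 ± 0.32 (adjusted p = 0.738). Between the WT populations Ccl25 gave -0.41 ± 0.25 (adjusted p = 0.245), which passed without WT cTEC 4 (-0.61, adjusted p = 0.0288). With WT cTEC 1 as the only WT cTEC library the value was -0.73.

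Cx3cl1 and Cxcl16 encode the membrane-bound ligands of CX3CR1 and CXCR6. Cx3cl1 had 52.4 CPM in KO mTEC, against 48.1 and 36.8 CPM in WT mTECs, and in WT mTECs it was lower than in WT cTECs (log2 fold change -2.33 ± 0.25, adjusted p = 0.00136). In cTECs it had 247 CPM in KO cTEC, against 152, 249, 215 and 240.1 CPM in WT cTECs, inside the WT range (0.21 ± 0.28, adjusted p = 0.647). Cxcl16 had 131 CPM in KO mTEC, against 146 and 103 CPM in WT mTECs, with the KO library between the WT libraries. In cTECs Cxcl16 fell to 34.6 CPM in KO cTEC, against 138, 177, 171 and 137 CPM in WT cTECs, with a log2 fold change of -2.17 ± 0.30 (adjusted p = 0.00208) with no overlap. Its WT population difference was not called (-0.32 ± 0.20, adjusted p = 0.255).

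The Ccl21 copies encode CCR7 ligands that guide selected thymocytes from cortex to medulla, and they were nearly lost from KO cTEC. In mTECs the sum of the Ccl21 copies was 380.1 CPM in KO mTEC, against 575 and 363 CPM in WT mTECs, and the KO library lay between the WT libraries (log2 fold change -0.30 ± 0.33, adjusted p = 0.874). In cTECs they summed to 1.67 CPM in KO cTEC (26 counts), against 841, 874, 1119 and 785 CPM in WT cTECs, which gave a log2 fold change of -9.07 ± 0.53 (adjusted p = 8.45e-05). With Gm13304 and Gm10591 added the sums were 1.80 CPM in KO cTEC (28 counts), against 944 to 1276 CPM in WT cTECs. The difference between the KO effects was 8.77 ± 0.57 (adjusted p = 0.000241).

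Most of the copies' counts came from Ccl21a, with 345 CPM in KO mTEC, against 507 and 282 CPM in WT mTECs, and 1.54 CPM in KO cTEC, against 741, 671, 964 and 657 CPM in WT cTECs. All 4 WT cTEC libraries stood above the 3 mTEC libraries. Ccl21b had a single count in KO cTEC, against 64.6, 151, 97.6 and 76.6 CPM in WT cTECs, a ratio of the WT mean to KO of 1520 with a 95% interval of 272 to 59800 that covers counting error only. Ccl21d also had 1 count there, against 35.8, 52.3, 57.0 and 51.2 CPM in WT cTECs, a ratio of 764 (137 to 30200). In mTECs, Ccl21b had 20.9 CPM in KO mTEC, against 41.4 and 52.8 CPM in WT mTECs, and Ccl21d had 13.8 CPM in KO mTEC, against 26.6 and 28.7 CPM in WT mTECs. For both the KO library lay below the WT pair, at -1.17 ± 0.49 and -1.0 ± 0.33 on the log2 scale, with adjusted p-values of 0.595 and 0.51.

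Summed over copies, Ccl21 was lower in WT mTECs than in WT cTECs by a log2 fold change of -0.95 ± 0.24 (adjusted p = 0.022). Sums over copies were fitted with all 8 libraries only, and the alternative settings were not run on them. Of the single copies, Ccl21a (-0.94 ± 0.27, adjusted p = 0.0357) and Ccl21d (-0.83 ± 0.23, adjusted p = 0.0303) passed, and Ccl21b (-1.05 ± 0.34, adjusted p = 0.0505) did not. Ccl21a no longer passed without WT mTEC 2 (adjusted p = 0.27), without WT cTEC 2 (adjusted p = 0.0581), without WT cTEC 3 (adjusted p = 0.0779), with WT cTEC 1 as the only WT cTEC library (adjusted p = 0.0632) or with a replicate block (adjusted p = 0.0846). Ccl21d no longer passed without WT mTEC 1 (adjusted p = 0.188), without WT mTEC 2 (adjusted p = 0.167), without WT cTEC 2 (adjusted p = 0.0658), without WT cTEC 3 (adjusted p = 0.0781), with WT cTEC 1 as the only WT cTEC library (adjusted p = 0.211) or with a replicate block (adjusted p = 0.157). Ccl21b passed with no filter on low counts (-1.06, adjusted p = 0.0467), with DESeq2 (-0.98, adjusted p = 0.017), with limma-voom (-0.98, adjusted p = 0.0379), without WT cTEC 1 (-1.20, adjusted p = 0.014) and also without WT cTEC 4 (-1.18, adjusted p = 0.0485). Ccl19, the other CCR7 ligand, and the pseudogene Ccl19-ps1 stayed between 0 and 4.91 CPM in the 8 libraries and were called in no comparison.

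Xcl1, Ccl1 and Cxcl13, ligands known to guide dendritic cells, T cells and B cells, were higher in WT mTECs than in WT cTECs. Xcl1, which attracts XCR1-bearing dendritic cells, had 6.78 CPM in KO mTEC, against 4.13 and 8.93 CPM in WT mTECs, while it had 0 counts in KO cTEC, against 0.0713, 0, 0.0543 and 0 CPM in WT cTECs. Its log2 fold change between the WT populations was 7.39 ± 0.90 (adjusted p = 0.00185). With 1, 0, 1 and 0 counts in WT cTECs 1 to 4, the fitted size depends on the prior count. Ccl1, a ligand of CCR8, had 17.4 CPM in KO mTEC, against 15.1 and 20.4 CPM in WT mTECs, and 0 counts in KO cTEC, against 1.14, 0.369, 0.652 and 0 CPM in WT cTECs. Its WT population difference was 5.04 ± 0.86 (adjusted p = 0.0058), which did not pass without WT mTEC 2 (adjusted p = 0.0636). Cxcl13, the B cell attractant that binds CXCR5, had 82.9 CPM in KO mTEC, against 40.4 and 55.5 CPM in WT mTECs, and 4.88 CPM in KO cTEC, against 7.78, 5.31, 2.23 and 21.2 CPM in WT cTECs. It was higher in WT mTECs (2.38 ± 0.68, adjusted p = 0.0364), but not with no filter on low counts (adjusted p = 0.063), without WT mTEC 1 (adjusted p = 0.108), without WT mTEC 2 (adjusted p = 0.19) or without WT cTEC 2 (adjusted p = 0.0815). Neither Xcl1, Ccl1 nor Cxcl13 was called in KO cTEC (adjusted p = 0.529, 0.182 and 0.573), and Ccl1 passed there without WT cTEC 4 (-6.52, adjusted p = 0.0311). With WT cTEC 1 as the only WT cTEC library the Ccl1 value was -7.20. For Xcl1 and Ccl1 the WT cTEC levels leave little room for a lower value: the floor of 3 counts is 0.193 CPM in KO cTEC.

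Ccl17 and Ccl22, both ligands of CCR4, behaved unlike each other within WT cTECs. Ccl17 had 9.04 CPM in KO mTEC, against 11.7 and 21.6 CPM in WT mTECs, and 0.514 CPM in KO cTEC, against 1.64, 0.811, 0.706 and 1.86 CPM in WT cTECs, and it was higher in WT mTECs than in WT cTECs (3.72 ± 0.51, adjusted p = 0.00278), though not without WT mTEC 2 (adjusted p = 0.053). Ccl22 had 113 CPM in KO mTEC, against 167 and 109 CPM in WT mTECs. In cTECs Ccl22 had no count in KO cTEC, against 65.5, 3.84, 2.61 and 2.58 CPM in WT cTECs, so that library 1 stood far above the other 3. KO cTEC was at least 96.6-fold below the WT mean at a floor of 3 counts, yet neither the KO cTEC change (adjusted p = 0.165) nor the difference between WT populations (log2 fold change 2.90 ± 1.21, adjusted p = 0.111) was called. That bound rested on WT cTEC 1, and without this library it was at least 15.6-fold. Without WT cTEC 1 the WT population difference was 5.53 (adjusted p = 6.17e-05), and the KO cTEC change (adjusted p = 0.00183) and the difference of KO effects (adjusted p = 0.00723) also passed. With limma-voom the WT population difference passed (4.51, adjusted p = 0.00343). With WT cTEC 1 as the only WT cTEC library it was 1.03, and the spread among WT cTECs was then not measured.

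Ccl5, a ligand of CCR1 and CCR3, had 116 CPM in KO mTEC, against 109.8 and 121 CPM in WT mTECs, and 2.38 CPM in KO cTEC, against 65.6, 12.0, 7.38 and 18.9 CPM in WT cTECs. WT cTEC 1 was again the highest of its group. Ccl5 was called neither between the WT populations (2.16 ± 0.72, adjusted p = 0.0578) nor in KO cTEC (-3.44 ± 1.32, adjusted p = 0.115), and without WT cTEC 1 both passed (3.18 with adjusted p = 0.000458, and -2.42 with adjusted p = 0.0157). The WT difference also passed with limma-voom (adjusted p = 0.00584) and the KO cTEC change with DESeq2 (adjusted p = 0.0323). With WT cTEC 1 as the only WT cTEC library these log2 values were 0.77 and -4.87. In the same library Ccr4, the receptor of Ccl17 and Ccl22, was at 14.8 CPM, against 1.03 to 2.96 CPM in WT cTECs 2 to 4. The costimulatory gene Cd86 was at 20.8 CPM in WT cTEC 1, against 0.878 to 1.85 CPM. Aire, the transcription factor of mature mTECs, was at 116 CPM, against 28.9 to 78.0 CPM. Among the 12 mTEC markers, WT cTEC 1 was the highest of the 4 WT cTEC libraries for 6 (Aire, Cd80, Cd40, Cd86, H2-Aa and Epcam), inside their range for 3 (Fezf2, Tnfrsf11a and Cldn3) and the lowest for 3 (Krt5, Krt14 and Cldn4). Ccr4, Cd86 and Aire were picked after their values were seen, and their part in the Ccl22 and Ccl5 results was not tested.

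**Figure D4:**
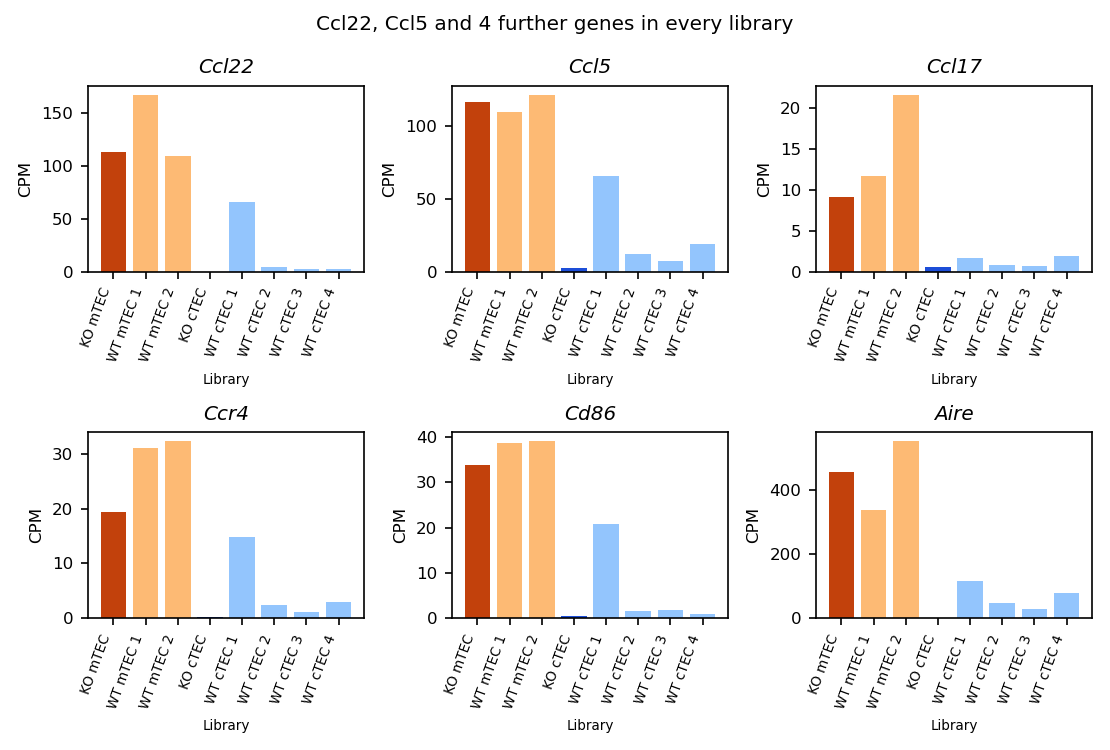
CPM of Ccl22, Ccl5 and Ccl17 (upper row) and of Ccr4, Cd86 and Aire (lower row) in each of the 8 libraries, 1 bar per library, with axes starting at 0. For Ccl22, Ccl5, Ccr4 and Cd86 the bar of WT cTEC 1 stands between those of the mTEC libraries and those of WT cTECs 2 to 4.

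The CXCR3 ligands Cxcl9, Cxcl10 and Cxcl11, which interferon gamma induces and which attract activated T cells, were higher in WT mTECs and lower in KO cTEC. Cxcl9 had 89.5 CPM in KO mTEC, against 85.1 and 124 CPM in WT mTECs, and 0.321 CPM in KO cTEC, against 18.6, 16.8, 17.5 and 18.8 CPM in WT cTECs. It fell in KO cTEC with a log2 fold change of -5.77 ± 0.44 (adjusted p = 0.000177), and in WT mTECs it was higher than in WT cTECs (2.54 ± 0.18, adjusted p = 0.000617). No cTEC library overlapped an mTEC library. Cxcl10 had 768 CPM in KO mTEC, against 827 and 628 CPM in WT mTECs, and 98.0 CPM in KO cTEC, against 217, 369, 399 and 311 CPM in WT cTECs. The KO cTEC change was smaller here (-1.73 ± 0.37, adjusted p = 0.0153) than for Cxcl9 in its point value, and the WT population difference was 1.17 ± 0.24 (adjusted p = 0.012), which did not pass without WT mTEC 1 (adjusted p = 0.107) or without WT mTEC 2 (adjusted p = 0.0591). Cxcl11, annotated in RefSeq as a transcribed pseudogene, had 66.1 CPM in KO mTEC, against 60.1 and 64.3 CPM in WT mTECs, and 0.771 CPM in KO cTEC, against 17.5, 12.8, 13.7 and 11.1 CPM in WT cTECs. Cxcl11 fell in KO cTEC (-4.14 ± 0.42, adjusted p = 0.000529) and was higher in WT mTECs (2.18 ± 0.21, adjusted p = 0.00101).

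Of the 4 neutrophil attractants that act on CXCR2 and the related Cxcl15, 3 of 5 were higher in WT mTECs than in WT cTECs and 3 of 5 fell in KO cTEC. Over all genes, 13.2% were higher in WT mTECs and 12.4% were lower in KO cTEC. Cxcl1 had 95.4 CPM in KO mTEC, against 136 and 76.2 CPM in WT mTECs, and 14.2 CPM in KO cTEC, against 30.2, 16.6, 23.3 and 39.98 CPM in WT cTECs. It was higher in WT mTECs (1.94 ± 0.34, adjusted p = 0.0063), though not without WT mTEC 1 (adjusted p = 0.0698), and the KO cTEC change was not called (-0.96 ± 0.50, adjusted p = 0.228). Cxcl2 had 89.7 CPM in KO mTEC, against 87.0 and 60.7 CPM in WT mTECs, and 0.386 CPM in KO cTEC, against 19.5, 15.3, 11.02 and 25.4 CPM in WT cTECs. The KO cTEC library, with 6 counts, lay far under all others, and Cxcl2 fell there (-5.50 ± 0.71, adjusted p = 0.00156) and was higher in WT mTECs (2.05 ± 0.31, adjusted p = 0.00385).

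Cxcl3 had 43.3 CPM in KO mTEC, against 63.0 and 48.1 CPM in WT mTECs, and 0.257 CPM in KO cTEC, against 13.6, 9.07, 11.9 and 28.7 CPM in WT cTECs. With 4 counts in KO cTEC, it fell by 5.90 ± 0.97 (adjusted p = 0.00463) on the log2 scale, and in WT mTECs it was higher by 1.81 ± 0.41 (adjusted p = 0.0155), which did not pass without WT mTEC 1 (adjusted p = 0.112) or without WT mTEC 2 (adjusted p = 0.0793). Cxcl5 had 21.8 CPM in KO mTEC, against 39.6 and 20.0 CPM in WT mTECs, and 1.22 CPM in KO cTEC, against 20.1, 12.8, 9.34 and 14.9 CPM in WT cTECs. It fell in KO cTEC (-3.54 ± 0.66, adjusted p = 0.00825) below all WT cTEC libraries, and the WT population difference was not called (1.06 ± 0.36, adjusted p = 0.0616) but passed with a CPM of at least 5 (1.11, adjusted p = 0.0454), with DESeq2 (1.12, adjusted p = 0.0328), with limma-voom (1.05, adjusted p = 0.0429) and also without WT cTEC 1 (1.27, adjusted p = 0.0211). Cxcl15 stayed at 8.22 CPM or less and was not called. Of the 22 immediate-early and dissociation genes, none was called higher and 13 were called lower in WT mTECs than in WT cTECs. The shares over all genes were 13.2% higher and 13.9% lower. Cxcl1, Cxcl2 and Cxcl3, whose promoters share the 11 bases with the NF-kB match, were all higher in WT mTECs. Cxcl2 and Cxcl3 but not Cxcl1 were called lower in KO cTEC. Among the other members with a match, Cxcl10 and Ccl27a were higher in WT mTECs, and Ccl20 and Ccl9 were not called. In KO cTEC, Cxcl10, Ccl9 and Ccl20 were called lower and Ccl27a was not called. The part of the NF-kB match in these levels was not tested.

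The monocyte and eosinophil attractants of the Ccl2 cluster on chromosome 11 fell in KO cTEC in 4 of the 5 tested members, against 12.4% of all genes lower. Ccl1, given above, lies in the same cluster, is not counted among these 5 and was not called in KO cTEC. Ccl8, which in the mouse acts on CCR8, had 51.5 CPM in KO mTEC, against 85.1 and 85.2 CPM in WT mTECs, with the KO library below both. In cTECs it had 0 counts in KO cTEC, against 44.4, 15.3, 39.9 and 25.3 CPM in WT cTECs, at least 162-fold lower than their mean (adjusted p = 0.00109). Ccl8 was higher in WT mTECs than in WT cTECs (1.45 ± 0.36, adjusted p = 0.022), though not without WT mTEC 1 (adjusted p = 0.111) or without WT mTEC 2 (adjusted p = 0.128). Ccl2, the main CCR2 ligand, had 68.1 CPM in KO mTEC, against 58.4 and 52.4 CPM in WT mTECs, and 3.08 CPM in KO cTEC, against 18.0, 24.2, 22.3 and 9.54 CPM in WT cTECs. It fell in KO cTEC (-2.58 ± 0.55, adjusted p = 0.0148) and was higher in WT mTECs (1.58 ± 0.32, adjusted p = 0.011), though not without WT mTEC 1 (adjusted p = 0.0801) or without WT mTEC 2 (adjusted p = 0.0764).

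Ccl7, another CCR2 ligand, had 44.0 CPM in KO mTEC, against 40.99 and 29.7 CPM in WT mTECs, and 6.30 CPM in KO cTEC, against 17.8, 55.4, 69.0 and 36.6 CPM in WT cTECs. It fell in KO cTEC (-2.83 ± 0.74, adjusted p = 0.033), although this did not pass without WT mTEC 1 (adjusted p = 0.0554), without WT mTEC 2 (adjusted p = 0.0537), without WT cTEC 2 (adjusted p = 0.0645) or without WT cTEC 4 (adjusted p = 0.0533). Its WT population difference was not called (-0.34 ± 0.46, adjusted p = 0.615) and had the opposite sign, at 0.95, with WT cTEC 1 as the only WT cTEC library. Ccl11, or eotaxin, had 101 CPM in KO mTEC, against 165 and 123 CPM in WT mTECs, and 30.5 CPM in KO cTEC, against 127, 372, 522 and 274 CPM in WT cTECs. Ccl11 fell in KO cTEC (-3.41 ± 0.77, adjusted p = 0.0199), and its WT population difference (-1.17 ± 0.49, adjusted p = 0.111) passed with DESeq2 (-1.10, adjusted p = 0.0263) and also without WT cTEC 1 (-1.43, adjusted p = 0.00607). The WT cTEC libraries were spread widely for both genes, with library 1 the lowest. Ccl12 stayed at 5.39 CPM or less and was not called, and Ccl24, which lies on chromosome 5, had a count only in the WT mTECs (0.440 and 1.59 CPM).

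The CCR1 ligands Ccl6 and Ccl9, myeloid chemokines of the mouse, were not called between the WT populations and fell to 4 and 6 counts in KO cTEC. Ccl6 had 144 CPM in KO mTEC, against 233 and 141 CPM in WT mTECs, and 0.257 CPM in KO cTEC, against 77.8, 171, 163 and 154 CPM in WT cTECs. Its 4 counts in KO cTEC gave a log2 fold change of -9.06 ± 0.85 (adjusted p = 0.000355). Ccl9 had 188 CPM in KO mTEC, against 186 and 136 CPM in WT mTECs, and 0.386 CPM in KO cTEC, against 94.7, 130.3, 110.1 and 115 CPM in WT cTECs. With 6 counts in KO cTEC it gave -8.16 ± 0.46 (adjusted p = 7.94e-05), the lowest adjusted p of the family in that comparison. Between WT mTECs and WT cTECs neither was called (adjusted p = 0.382 and 0.0701). Ccl9 was called higher in WT mTECs with RLE size factors (0.59, adjusted p = 0.0486), with a CPM of at least 5 (0.58, adjusted p = 0.0444) and also with DESeq2 (0.59, adjusted p = 0.0212). With WT cTEC 1 as the only WT cTEC library the log2 values were 0.72 for Ccl9 and 1.22 for Ccl6. In KO mTEC the log2 fold changes of Ccl6 and Ccl9 were -0.38 ± 0.47 and 0.22 ± 0.27. In KO cTEC 5 of 11 tested dendritic cell and macrophage markers, 12 of 12 tuft cell markers and 4 of 8 tested B cell markers were called lower too, against 12.4% of all genes. Thymocyte markers were called lower in 2 of 13 and endothelial markers in 2 of 9, with median log2 fold changes of -1.51 and 0.39. Lyz2 made up most of the summed level of the dendritic cell and macrophage list, with 9.25 CPM in KO cTEC, against 121 to 223 CPM in WT cTECs.

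Ccl3 and Ccl4, inflammatory chemokines of myeloid and lymphoid cells, were low throughout: Ccl3 had 4.88 CPM in KO mTEC, against 12.8 and 11.5 CPM in WT mTECs, and 0 counts in KO cTEC, against 3.28, 1.40, 3.10 and 3.35 CPM in WT cTECs. Ccl3 was at least 14.4-fold lower in KO cTEC (adjusted p = 0.00506), and it was higher in WT mTECs (2.12 ± 0.45, adjusted p = 0.0122), though not without WT mTEC 1 (adjusted p = 0.105) or without WT mTEC 2 (adjusted p = 0.0969). Ccl4 had 1.17 CPM in KO mTEC, against 3.47 and 3.43 CPM in WT mTECs, and 0 counts in KO cTEC, against 0.214, 0.664, 0.815 and 0.219 CPM in WT cTECs. It was higher in WT mTECs (2.83 ± 0.79, adjusted p = 0.0322), though not without WT mTEC 1 (adjusted p = 0.176), without WT mTEC 2 (adjusted p = 0.188), without WT cTEC 2 (adjusted p = 0.0552) or with a replicate block (adjusted p = 0.0969), and was not called in KO cTEC (adjusted p = 0.0972). In both genes the 2 WT mTEC libraries stood above every cTEC library.

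Among ligands known from other epithelia, Ccl20, the ligand of CCR6, was high in both WT populations and nearly lost from KO cTEC. It had 385 CPM in KO mTEC, against 756 and 462 CPM in WT mTECs, and 0.386 CPM in KO cTEC, against 229.6, 527, 483 and 373 CPM in WT cTECs. With 6 counts in KO cTEC it gave a log2 fold change of -10.00 ± 0.86 (adjusted p = 0.000249), and in mTECs the KO library lay below both WT libraries without being called (-0.66 ± 0.49, adjusted p = 0.791). The difference of the KO effects was 9.34 ± 0.92 (adjusted p = 0.00102), and the WT populations were not called apart (0.59 ± 0.33, adjusted p = 0.207). With WT cTEC 1 as the only WT cTEC library the WT population value was 1.36. Cxcl14, which skin and other epithelia express, had 12.0 CPM in KO mTEC, against 12.6 and 11.3 CPM in WT mTECs, almost equal. In cTECs it had 1 count in KO cTEC, against 7.35, 15.9, 23.2 and 28.9 CPM in WT cTECs, a ratio of the WT mean to KO of 293 with a 95% interval of 52.6 to 11600 (adjusted p = 0.00333). Its WT population difference was not called (-0.66 ± 0.49, adjusted p = 0.343) but passed without WT cTEC 1 (-0.93, adjusted p = 0.0462).

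The Ccl27 copies, ligands of CCR10 known for homing to skin, were higher in WT mTECs and were not called in KO cTEC. Ccl27a had 131 CPM in KO mTEC, against 92.1 and 108 CPM in WT mTECs, and 12.7 CPM in KO cTEC, against 27.5, 10.8, 11.1 and 18.3 CPM in WT cTECs, and KO cTEC lay inside the WT range. Ccl27b had 0 counts in KO mTEC, in WT mTECs and in KO cTEC, and at most 0.109 CPM in a WT cTEC library, so the sum over copies was almost all Ccl27a. Summed, the copies were higher in WT mTECs than in WT cTECs by 2.56 ± 0.35 on the log2 scale (adjusted p = 0.00269), and in KO cTEC the change was -0.41 ± 0.49 (adjusted p = 0.597). The KO cTEC value of Ccl27a alone was -1.20 with WT cTEC 1 as the only WT cTEC library. Cxcl17, a mucosal chemokine, had 28.0 CPM in KO mTEC, against 15.2 and 9.99 CPM in WT mTECs, and 8.55 CPM in KO cTEC, against 13.6, 47.9, 16.6 and 19.4 CPM in WT cTECs. KO cTEC was below all WT cTECs and KO mTEC above both WT mTECs, and neither change was called (adjusted p = 0.191 and 0.72). Ccl28, the other CCR10 ligand, stayed at 5.81 CPM or less and was not called.

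**Figure D5:**
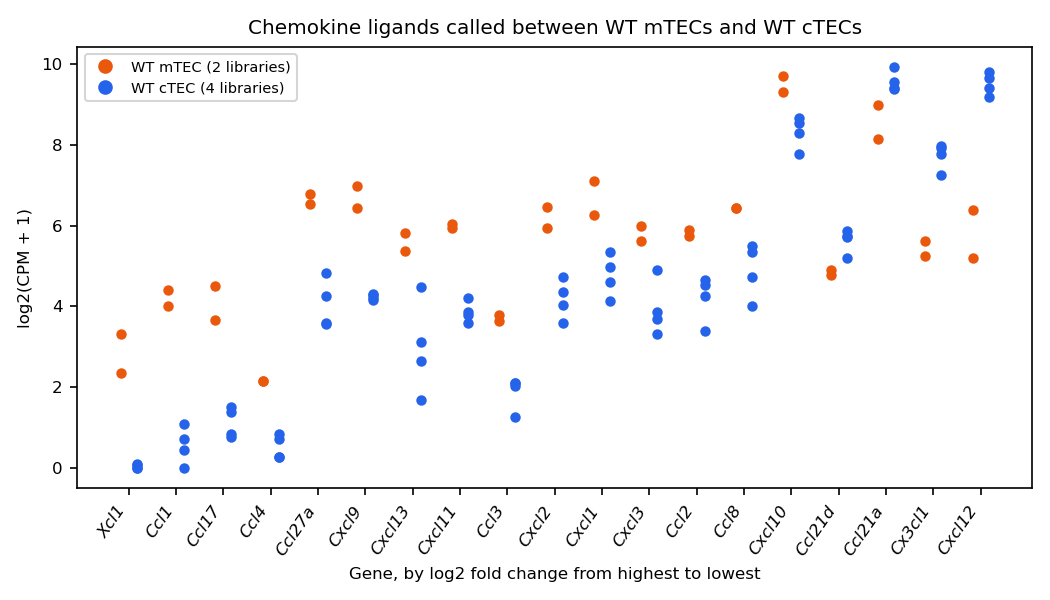
Level as log2(CPM + 1) of the 19 members called between the WT populations, 1 point per library, ordered by log2 fold change. The 15 genes from Xcl1 to Cxcl10 have both WT mTEC points above all WT cTEC points, and for Ccl21d, Ccl21a, Cx3cl1 and Cxcl12 the order is turned round.

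Receptors for these ligands and the pathways known to induce them were read beside the family, from lists chosen with earlier results of these data known. Over all genes tested, 12.4% were lower and 5.10% higher in KO cTEC. Between the WT populations 13.2% were higher and 13.9% lower in mTECs. Of 18 chemokine receptors, 14 were tested. Their summed level was 8.16 CPM in KO cTEC, where 11 of the 18 had no count, against 90.0 to 106 CPM in WT cTECs, and 153 CPM in KO mTEC, against 173 and 192 CPM in WT mTECs. Receptors with no count numbered 4, 2, 1 and 6 in WT cTECs 1 to 4. In KO cTEC 4 receptors fell, among them Ccr1, Ccr2 and Ccr7, and Ccr7, the receptor of the Ccl21 copies, had 1.09 CPM in KO cTEC, against 37.5, 46.5, 33.1 and 38.5 CPM in WT cTECs (-5.14 ± 0.43, adjusted p = 0.000228). Ccr1 and Ccr2 had 0 counts in KO cTEC, and the count of receptors was 7 with DESeq2 and 1 with limma-voom. In WT mTECs against WT cTECs 1 receptor was called, Ccr6, which binds CCL20 (3.11 ± 0.81, adjusted p = 0.0253), and this count ran from 0 to 3 when single libraries were left out. The median log2 fold change of the tested receptors was -5.82 in KO cTEC and 1.50 between the WT populations, beside -0.14 and 0.06 over all genes.

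Of the 6 atypical receptors, which bind or clear chemokines without classical signalling, 1 rose in KO cTEC, and the median log2 fold change of the list there was -0.43. Ackr4, which scavenges CCL19, CCL21 and CCL25, had 776 CPM in KO cTEC, against 146, 153, 189 and 168 CPM in WT cTECs and rose (2.24 ± 0.18, adjusted p = 0.000197), and none of the other 5 was called. In mTECs it had 27.6 CPM in KO mTEC, against 10.7 and 10.8 CPM in WT mTECs, and the KO mTEC value was not called (adjusted p = 0.18). Between the WT populations Ackr4 (-3.93 ± 0.20, adjusted p = 0.000208), Ackr3 and Pitpnm3 were lower and Ackr2 (3.09 ± 0.83, adjusted p = 0.0282) was higher in mTECs, a count of 4 that ran from 1 to 5 when single libraries were left out.

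In the interferon pathway, whose list leaves out the Cxcl members, 6 of 18 genes were lower in KO cTEC and none higher. The shares over all genes were 12.4% lower and 5.10% higher, and the median of the list was -0.55. Irf7 (-1.71 ± 0.29, adjusted p = 0.00517) and Socs1 (-1.71 ± 0.23, adjusted p = 0.00175) changed most. Between the WT populations 5 were higher and 7 lower in mTECs, a median of -0.46, while the 3 CXCR3 ligands were all higher. The highest and lowest were Ifnb1 (8.03) and Irf9 (-1.10), and this count of 12 ran from 0 to 14 when single libraries were left out. Ifnb1 had 0 counts in all 4 WT cTEC libraries, so its fitted size depends on the prior count. Of 25 genes of the NF-kB and TNF receptor pathway, 3 were higher and 7 lower in KO cTEC, a median of -0.55. Tnfrsf11a, which encodes the RANK receptor of mTEC development, had 4.18 CPM in KO cTEC, against 148, 139.7, 134 and 156 CPM in WT cTECs (-5.11 ± 0.27, adjusted p = 7.04e-05), and Nfkb1 was the highest (1.28 ± 0.21, adjusted p = 0.005). Between the WT populations 4 genes of this list were higher and 8 lower in mTECs, a median of -0.04, and this count of 12 ran from 1 to 14.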

How the data were processed

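RNA from frozen pellets of thymic epithelial cells was made into low-input full-length cDNA libraries and sequenced in paired ends, per the labels' protocols. The authors deposited raw read counts per Entrez gene for each library, with the gene length in bases, and featureCounts and the mm10 build appear in the submitters' processing notes. Neither the aligner nor the annotation or the use of strand is given in the sources used here. A table of the whole series holds 8 per-sample columns whose names match no label, and it was not used.

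Genes reaching 1 CPM in 2 or more of the 8 libraries were tested with edgeR 4.0.16 in R 4.3.3 (TMM scaling, robust quasi-likelihood fit, 1 mean per group, 4 residual degrees of freedom), with Benjamini-Hochberg adjustment at 0.05 over all tested genes. The 4 comparisons were WT mTEC against WT cTEC, KO mTEC against WT mTEC, KO cTEC against WT cTEC, and the KO effect in mTECs minus that in cTECs. The procedure was also run on simulated data. There the KO libraries were given the spread fitted in the WT libraries, so whether that spread holds for KO was not tested. Fold changes are log2 values, and the SE beside them was derived from the fold change and the F statistic of its test. For genes at few counts both depend on the prior count. A gene at 0 counts in KO was set at a floor of 3 counts, and intervals are exact 95% intervals; both cover counting error only, since reads carried no molecular identifiers. Library totals, 11516780 to 19171953 counts, set the precision.

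Alternatives were RLE size factors, no filter, a CPM of at least 5, DESeq2 1.42.0, limma-voom (limma 3.58.1), each WT library left out, WT cTEC 1 as the only WT cTEC library, WT libraries only, and a replicate block. With WT cTEC 1 as the only WT cTEC library, every group but WT mTEC held 1 library. All spread then came from the 2 WT mTEC libraries, so only log2 values are given for members that gained a call in that setting. Deviations of same-numbered WT libraries correlated at -0.158 and -0.0579, so the numbers were not taken as pairs. Every member with a count is named. Values in every library are given for those called in any comparison or at a group mean of 10 CPM or more, and list genes are named where called and among the strongest in a direction, except 1 gene that is not reported here. The members and lists were chosen with earlier results of these data known. The design calls the libraries biological replicates but ties none to an animal, so p-values measure the spread between these libraries, part of which may be technical.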

Additional observations from a re-analysis of the deposited data

Results flagged for a closer look

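Among the 4 WT cTEC libraries, the highest or lowest value of 3 members stood apart from the rest, out of 32 members examined. The gap to the nearest library, as a share of the group's range, exceeded Dixon's 95% critical value for 4 samples, which chance alone gives in about 1 in 20 groups. Ccl22 had 65.5 CPM in WT cTEC 1 (gap of 0.98 of the range), Ccl3 had 1.40 CPM in WT cTEC 2 (0.871) and Cxcl17 had 47.9 CPM in WT cTEC 2 (0.833).

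The KO effect differed between the populations, by edgeR's test of that difference, for 15 members and for Mcl1, each with a higher log2 fold change in mTECs than in cTECs. The differences were 2.88 for Ccl2, 7.17 for Ccl3, 8.68 for Ccl6, 11.24 for Ccl8, 8.38 for Ccl9, 9.34 for Ccl20, 8.74 for Ccl21a, 9.23 for Ccl21b and 8.41 for Ccl21d. They were 5.78 for Cxcl2, 5.54 for Cxcl3, 5.54 for Cxcl9, 4.23 for Cxcl11, 8.04 for Cxcl14, 2.24 for Cxcl16 and 3.96 for Mcl1. For Ccl3, Ccl8, Ccl21b, Ccl21d and Cxcl14, with 0 or 1 count in KO cTEC, the fitted size depends on the prior count.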

How the results depend on the processing

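The members gave 53 calls over the 4 comparisons. All were kept with RLE size factors, with DESeq2 and without WT cTEC 1, 52 of 52 with a CPM of at least 5, 52 with no filter, 51 with WT cTEC 1 as the only WT cTEC library, 28 with limma-voom, 47, 49 and 51 without WT cTEC 2, 3 and 4, 40 without WT mTEC 1 and 38 without WT mTEC 2. With limma-voom 8 members were called in KO cTEC and 1 for the difference of KO effects. With WT cTEC 1 as the only WT cTEC library, no spread among WT cTECs was measured, so the counts of calls in that setting, here and below, carry little weight. Leaving out single libraries gave 8 to 25 members between WT populations, 18 to 22 in KO cTEC, 0 in KO mTEC and 12 to 20 for the difference. With the replicate block, 16 members (14 higher, 2 lower) were called between WT populations, and Ccl21a, Ccl21d and Ccl4 were lost; the numbers were not taken to pair the libraries.

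Receptors called between WT populations numbered 2 with RLE, no filter or a CPM of at least 5, 4 with DESeq2, 8 with limma-voom, 5 with WT cTEC 1 as the only WT cTEC library and 0 to 3 without single libraries. In KO cTEC they numbered 7 with DESeq2, 1 with limma-voom and 10 with WT cTEC 1 as the only WT cTEC library. Atypical receptors numbered 2 between WT populations with that library alone or the replicate block and 1 to 5 without single libraries, and 2 in KO cTEC with that library alone. Between WT populations, interferon genes numbered 7 with that library alone, 3 with the block and 0 to 14 without single libraries, and NF-kB genes 5 with the block and 1 to 14 without single libraries.

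None of the 53 calls changed sign, while 26 uncalled log2 values of 17 members did. In KO mTEC these were Ccl1 (8e-04 with RLE or DESeq2) and, with a CPM of at least 5, Ccl5 (-0.0116) and Cxcl14 (-0.0085). Leaving out WT mTEC 1 or WT mTEC 2 moved to both sides of 0 the KO mTEC values of Ccl1 (-0.23 to 0.21), Ccl21a (-0.56 to 0.29), Ccl22 (-0.56 to 0.0497), Ccl25 (-0.026 to 0.078), Ccl5 (-0.066 to 0.08), Ccl6 (-0.70 to 0.0203), Cxcl1 (-0.51 to 0.32), Cxcl10 (-0.11 to 0.29), Cxcl12 (-0.0087 to 1.19), Cxcl14 (-0.071 to 0.089), Cxcl16 (-0.16 to 0.34), Cxcl5 (-0.86 to 0.12), Cxcl9 (-0.48 to 0.069) and Xcl1 (-0.40 to 0.71). It did the same to the difference of KO effects for Cx3cl1 (-0.085 to 0.30) and Cxcl12 (-0.89 to 0.31), and with WT cTEC 1 as the only WT cTEC library that of Cx3cl1 was -0.30. Between WT populations they were Ccl11 (0.14), Ccl7 (0.95) and Cxcl14 (0.65) with WT cTEC 1 as the only WT cTEC library, and Ccl7 (0.15) and Cxcl14 (0.13) with the replicate block. The cause of these changes was not tested. With 1 KO library per population the KO spread was not measured, and counts under 3 in KO cTEC limit the size of a fold change.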
